A study of Homo sapiens with 2 samples.

Results

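The TCF/LEF factors are the DNA-binding proteins of canonical WNT signalling, and the BCL9, Pygopus and Groucho/TLE proteins are the cofactors that switch them on or off. The set described here held 10 genes, namely LEF1, TCF7, TCF7L1, TCF7L2, BCL9, BCL9L, PYGO1, PYGO2, TLE1 and TLE3. Its peaks were all rows of a list of APC peaks whose named gene was one of the 10. They came to 51 of the 44771 peaks in the list and named 9 of the 10 genes, out of 17266 gene names in all. LEF1 had no peak.

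The list came from HCT-116 cells, an established colon carcinoma line with the genotype APC wild-type, CTNNB1{delta}Ser45, so that the tumour suppressor APC is intact and the mutant β-catenin escapes degradation. The 2 groups, APC ChIP and input, shared this genotype and had 1 library each, and the labels name no drug treatment. Both came from crosslinked chromatin pre-cleared with rabbit IgG, and the APC library was then precipitated with a polyclonal antibody to the C-terminus of the protein. There were no replicates and no read counts, so the depth is unknown, no difference was tested, and every value below describes 1 library of 1 cell line. A precipitation with a control antibody was not analysed here, so APC binding and unspecific recovery of accessible chromatin cannot be told apart.

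In the absence of a WNT signal, TCF/LEF factors sit on their target genes with Groucho/TLE corepressors and keep them silent. When β-catenin accumulates it binds the TCF/LEF factor, and BCL9 or BCL9L then links β-catenin to a Pygopus protein, which reads methylated histone H3 through its PHD finger. In the colon, TCF7L2 is the factor that maintains the crypt stem cell compartment, and APC counteracts the complex by promoting the destruction of β-catenin. The question put to the peak list was which genes of this switch carried APC peaks, and where.

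The genes fell into those with a peak over the start and those without. A transcription start site (TSS) was placed from the centre of each peak and its listed distance to the TSS, and counted as covered if it lay inside a peak named for the same gene. The starts of 6 genes were covered, namely TCF7, TCF7L2, BCL9L, PYGO2, TLE1 and TLE3. The same 6 had a peak centre within 10 kb of the TSS. TCF7L1, BCL9 and PYGO1 had peaks only farther away, and LEF1 had none. Thus 9 of 10 genes were named for a peak at any distance, against 67.5% of 20037 protein-coding genes, 6 of 10 had a peak centre within 10 kb, against 50.9%, and 6 of 10 had a covered start, against 36.5%. Within 1 kb the count was 5 of 10, against 35.1%. BCL9L left the count at 1 kb because its covering peak is very long and is centred 8105 bp from the TSS. With 10 genes these counts were not tested against the background. Counted by peak rather than by gene, the shares near a start were lower than those of the whole list, which lay inside each interval. Of the 51 peaks, 14 were centred within 10 kb (27.5%, 95% Wilson interval 17.1 to 40.9, against 37.6% of all peaks), 5 within 1 kb (9.80%, interval 4.26 to 21.0, against 18.1%), and 6 covered a start (11.8%, interval 5.51 to 23.4, against 18.7%). These intervals treat peaks as independent and are not a test. Of the 51 peaks, 18 were named for TCF7L2, 10 for TLE1 and 9 for TCF7.

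**Figure D1:**
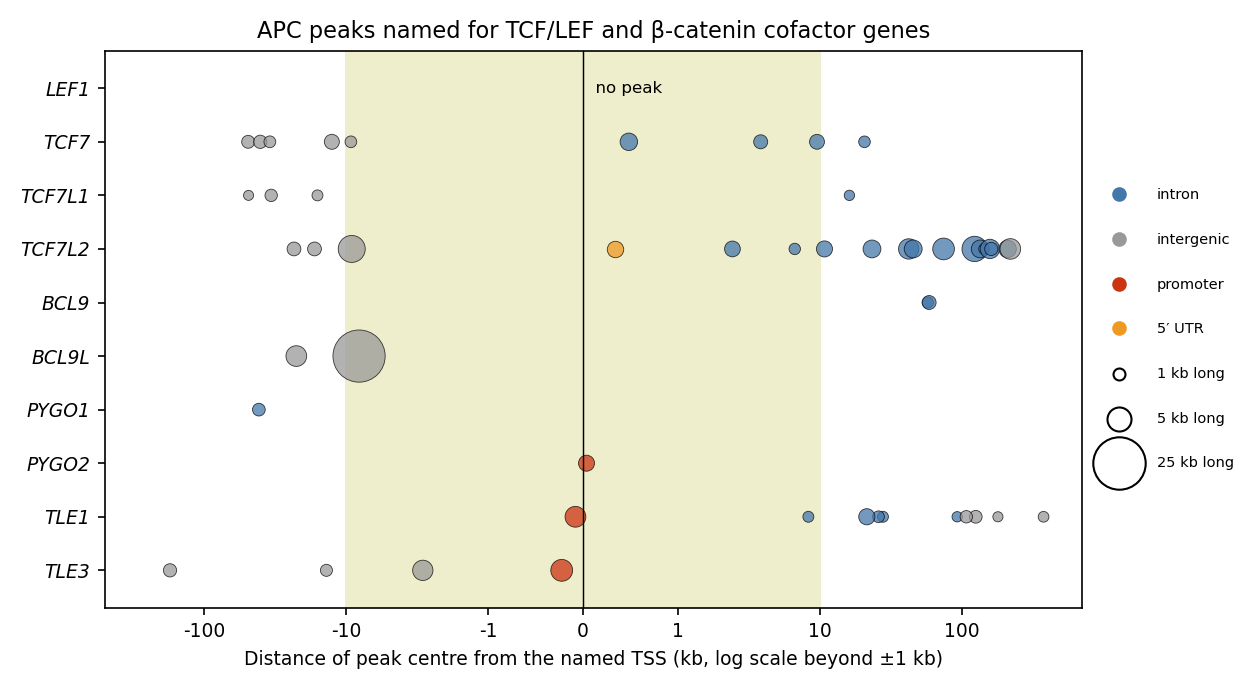
Each circle is 1 of the 51 peaks, placed by the distance of its centre from the TSS of the named gene (x axis, kb, negative upstream, linear within 1 kb and logarithmic beyond), with area growing with length and colour giving the deposited annotation. The shaded band is 10 kb to each side. TCF7L1, BCL9 and PYGO1 have no circle in the band, TCF7L2 has 15 of 18 downstream of the TSS, and LEF1 has none.

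Sequences upstream of 6 starts are shown because they contrast starts under a peak (TCF7L2, PYGO2, TLE1, TLE3) with starts that no peak reached (TCF7L1, BCL9), which were added after their values were seen. Each is the 250 bases before the outermost start in RefSeq on GRCh38.p14, read 5′ to 3′ on the strand of the gene, with CpG dinucleotides in capitals. They lie at chr10:112949997-112950246 (TCF7L2, plus strand), chr1:154961783-154962032 (PYGO2, minus), chr9:81689548-81689797 (TLE1, minus), chr15:70097918-70098167 (TLE3, minus), chr2:85133142-85133391 (TCF7L1, plus) and chr1:147541251-147541500 (BCL9, plus).
TCF7L2: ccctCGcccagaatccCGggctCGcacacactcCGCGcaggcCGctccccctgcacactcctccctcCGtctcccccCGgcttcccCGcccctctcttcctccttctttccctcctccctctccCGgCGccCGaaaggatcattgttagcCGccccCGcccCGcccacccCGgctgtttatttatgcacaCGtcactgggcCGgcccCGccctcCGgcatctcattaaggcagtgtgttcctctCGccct
PYGO2: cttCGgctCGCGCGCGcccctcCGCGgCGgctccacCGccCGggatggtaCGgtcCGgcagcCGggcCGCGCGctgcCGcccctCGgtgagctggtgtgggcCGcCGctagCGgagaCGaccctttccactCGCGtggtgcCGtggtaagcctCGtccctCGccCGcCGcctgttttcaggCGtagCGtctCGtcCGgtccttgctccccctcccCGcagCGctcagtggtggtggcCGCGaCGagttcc
TLE1: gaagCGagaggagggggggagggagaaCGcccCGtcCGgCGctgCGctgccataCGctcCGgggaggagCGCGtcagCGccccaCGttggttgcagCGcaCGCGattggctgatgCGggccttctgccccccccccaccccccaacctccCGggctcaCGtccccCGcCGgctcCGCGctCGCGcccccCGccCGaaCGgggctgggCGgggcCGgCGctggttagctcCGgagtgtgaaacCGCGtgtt
TLE3: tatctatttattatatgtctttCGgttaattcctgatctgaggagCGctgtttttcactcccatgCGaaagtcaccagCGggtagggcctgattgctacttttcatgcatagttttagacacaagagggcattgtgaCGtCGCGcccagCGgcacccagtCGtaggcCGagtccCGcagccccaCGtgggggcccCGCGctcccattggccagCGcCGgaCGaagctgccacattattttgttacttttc
TCF7L1: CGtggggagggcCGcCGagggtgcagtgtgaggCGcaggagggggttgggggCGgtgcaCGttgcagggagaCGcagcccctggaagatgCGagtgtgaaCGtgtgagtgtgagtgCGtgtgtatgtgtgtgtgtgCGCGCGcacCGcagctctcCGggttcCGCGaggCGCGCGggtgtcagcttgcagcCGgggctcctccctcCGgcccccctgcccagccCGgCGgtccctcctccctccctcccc
BCL9: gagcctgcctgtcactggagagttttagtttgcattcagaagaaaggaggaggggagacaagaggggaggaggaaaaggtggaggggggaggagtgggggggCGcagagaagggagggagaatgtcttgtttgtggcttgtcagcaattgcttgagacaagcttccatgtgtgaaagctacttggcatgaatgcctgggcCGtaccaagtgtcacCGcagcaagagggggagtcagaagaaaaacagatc
The PYGO2 stretch held 38 CpG dinucleotides, TLE1 33, TCF7L2 21 and TLE3 17, against a median of 11 over 35116 RefSeq entries. Of the starts without a peak, TCF7L1 held 24 and BCL9 3. Not printed are LEF1, whose entry held 8, and PYGO1, whose 2 entries held 11 and 39. Also not printed are the TCF7 entries, with 22 and 1, and the inner entries of TCF7L2, with 5 and 4, and of TLE3, with 28 and 4. A CpG-rich upstream stretch was therefore found both with and without a peak, and its share of G and C was 72.0% at TCF7L1 against 68.0% at TCF7L2. The share was 53.6% both at TLE3, under a peak, and at BCL9, without one. The peaks are on hg19, positions were not converted between builds, and starts of the 2 builds were matched by gene name only. On hg19, the 250 bases before the outermost listed start lay wholly inside the covering peak at TCF7L2, PYGO2, TLE1 and TLE3.

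Each upstream stretch was also searched on both strands for the core motif of TCF/LEF factors, spelled CTTTGNN with A or T at each N, and for the AP-1 site, spelled TGANTCA with C or G at the N. The RefSeq table held 15 starts for 9 of the 10 genes and none for BCL9L. The core occurred before 2 of these 15 starts (13.3%), against 12.0% of all 35116, and the AP-1 site before none of the 15, against 4.20%. Both cores lay before the second start in the table, 1 of TCF7 (positions -50 to -44) and 1 of TCF7L2 (-133 to -127, counted backwards from the start). The second TCF7L2 start lies at 113126633 on GRCh38, far inside the gene from the outermost start at 112950247. It was not placed against the peaks, which are on hg19. None of the 6 sequences printed held either motif.

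Among the TCF/LEF factors, TCF7L2 had the most peaks. It was named for 18 of the 51, between 114686019 and 114932106 on chromosome 10 (hg19), and 32 of the 17266 gene names had more. No peak of another name lay between its first and last peak, a span of 246088 bp. The median number of peaks per gene name was 2, and 40.9% of names had a single peak. The peak over the TCF7L2 start was 2172 bp long (114709262 to 114711433) and was annotated to the 5′ UTR. It reached from 747 bp upstream to 1424 bp downstream of the TSS. Only 26 bp separated it from the next peak, 1972 bp long and centred in a CpG island 2436 bp downstream. The longest peak of the gene, 6401 bp (114697683 to 114704083), lay in intergenic sequence with its centre 9126 bp upstream of the TSS. Together with an 883-bp intronic peak at 6688 bp and the edge of the next peak, these covered 9307 bp of the 20 kb around the start, or 46.5%. The share was 10.4% at the median of 10870 protein-coding genes that were named for a peak and have a strand in RefSeq, and 96.5% of these had less covered than TCF7L2.

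Most TCF7L2 peaks lay deep in the gene. Introns held 13 of the 18, and 7 lay more than 100 kb from the TSS. Intronic peaks ran along the gene from 2436 to 210699 bp downstream of the TSS, the last in intron 12 of 12 of its transcript. The largest of them was 5585 bp (114830714 to 114836298), 123497 bp downstream, and 98.2% of all intronic peaks were shorter. Peaks of 4015, 3496 and 3147 bp stood at 74641, 42424 and 158219 bp. A 3584-bp intergenic peak centred in an MLT1D long terminal repeat ended the series 220305 bp downstream. The median intronic peak of TCF7L2 was 2609 bp long, against 1209 bp for all 20403 intronic peaks. It was 950 bp for the 13 intronic peaks named for the other genes of the set. These were taken by name, so they include the PYGO1-named peak in an intron of PRTG. Of the 18 peaks, 15 were at least as long as the median of all peaks (1349 bp). Its 4 peaks centred in SINE repeats, all Alu elements, were 1437 to 4015 bp long, against a median of 888 bp over 17346 SINE-centred peaks.

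**Figure D2:**
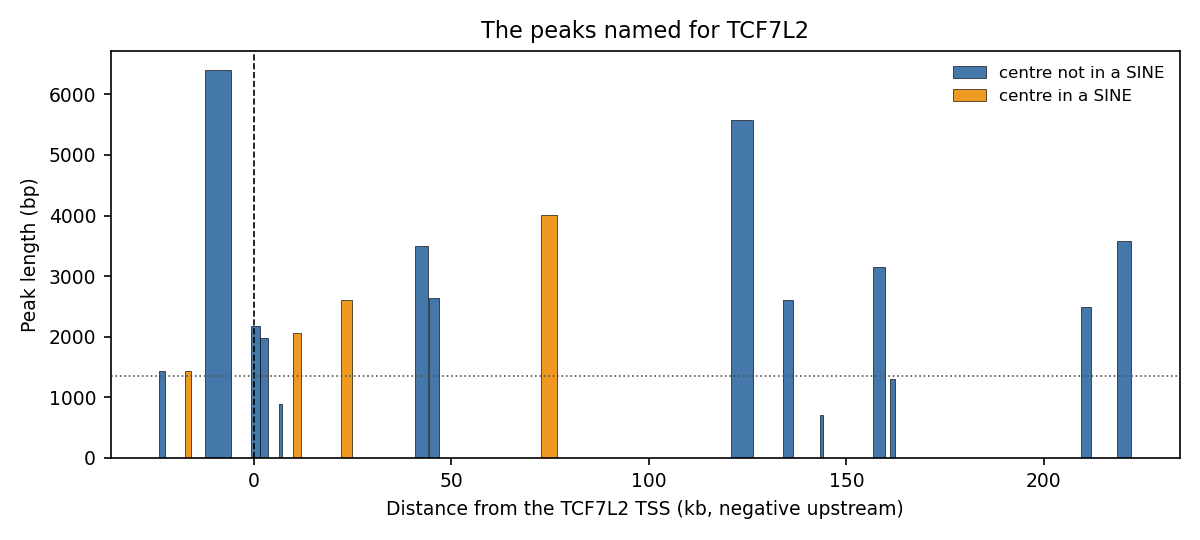
Each bar is 1 of the 18 peaks named for TCF7L2, at its distance from the TSS (x axis, kb), with its height (bp) and its width to the x scale both giving its length. Orange bars are centred in SINE repeats, the dashed line is the TSS and the dotted line the median length of all peaks (1349 bp). The tallest bars, 6401 and 5585 bp, stand 9126 bp upstream and 123497 bp downstream.

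TCF7 encodes TCF1, a factor best known from T cells, and its peaks lay to both sides of the start. Its 9 peaks lay within 48906 bp of the TSS, 5 upstream in intergenic sequence and 4 downstream in the first intron, and 4 of the 9 were centred within 10 kb. The list used 2 starts for the gene, 948 bp apart at 133450402 and 133451350 on chromosome 5. The first RefSeq starts of TCF7 are 8005 bp apart, so the starts of the list were not matched to those searched for motifs. The longest TCF7 peak, 2502 bp (133450586 to 133453087), covered the inner start, reaching 764 bp upstream and 1737 bp downstream of it, and began just past the outer one. It was longer than 81.8% of all peaks, but peaks over a start were long in general. Over all 8393 peaks that covered their named start, the median was 2248 bp and the third quartile 3138 bp. The other 8 ranged from 930 to 1753 bp, and those centred within 10 kb lay 9252 bp upstream (943 bp, in a MIR element), 3850 bp downstream (1491 bp, in an L1 element) and 9592 bp downstream (1723 bp). TCF7 had more peaks per length than TCF7L2. Between the flanking peaks, named for VDAC1 and SKP1, it had 7.27 peaks per 100 kb, against 4.64 for TCF7L2 and 1.49 over all chromosomes. The TCF7L2 peaks were longer, so they took up 12.5% of the equivalent stretch, against 10.4% for TCF7.

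TCF7L1, which encodes TCF3, a factor that acts mainly as a repressor, had 4 peaks, and none came within 15 kb of its start. The closest edges were 15510 bp upstream and 15883 bp downstream of the TSS. The 4 peaks were 613, 675, 787 and 1096 bp long, all below the median of all peaks, and 2 of them, including the only one in the gene (intron 3), were centred in Alu elements. A further 3 peaks lay in intron 4 of TCF7L1 but were named for TGOLN2, whose TSS was nearer. These were 2020, 1892 and 983 bp long (chromosome 2, 85512122 to 85528363), and the longest was centred in an AluSp element. By position in the gene, TCF7L1 thus had 4 intronic peaks, of which 1 carried its name.

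LEF1, the remaining factor, lay in a stretch without peaks. In RefSeq's gene order LEF1 follows HADH on chromosome 4. The last HADH peak ended at 108951931 and the next peak of any name, a 597-bp one named for RPL34-AS1, began at 109346603. The 394671 bp between them held no peak. If each peak is named for its nearest TSS, the distances of these flanking peaks, 40392 bp to HADH and 194712 bp to RPL34-AS1, place any LEF1 start known to the annotation between 108991654 and 109152189. No peak in the list was annotated to any of 11 RefSeq transcripts of LEF1. Gaps of this length or more made up 2.37% of 44747 gaps between neighbouring peaks but 34.7% of the spanned sequence. The start of HADH itself was marked by an 1885-bp peak centred 633 bp downstream of its TSS.

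The BCL9 adaptors differed from each other. BCL9L had the longest peak of the set, 24793 bp (chromosome 11, 118777322 to 118802114), which was the 9th longest in the whole list. It reached from 4291 bp inside the gene to 20501 bp upstream of the TSS, and its centre made it intergenic in the annotation. After a gap of 94 bp a second intergenic peak of 3634 bp followed, centred 22412 bp upstream. Peaks covered 71.5% of the 20 kb around this start, more than at 99.4% of the named protein-coding genes. They also covered 43.3% of the 65710 bp between the flanking peaks, named for CXCR5 and FOXR1. The CXCR5-named peak, 3273 bp long (118765235 to 118768507), was annotated to the transcription termination site of a BCL9L transcript, so APC peaks stood at both ends of the gene. BCL9, by contrast, had 2 peaks of 848 and 1478 bp in its first intron, 29 bp apart, at 57870 and 59062 bp from the TSS (chromosome 1, 147070718 to 147073072). No peak of any name reached the 20 kb around the BCL9 start.

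The Pygopus genes each had a single peak, at different kinds of position. The PYGO2 peak was 2045 bp long (chromosome 1, 154933197 to 154935241), was annotated as promoter and was centred 39 bp from the TSS. Its length was typical of the class, since 47.3% of all promoter peaks were shorter. Neighbouring genes were marked too, with peaks named for PBXIP1 and SHC1 on either side, and 34.6% of the 20 kb around the PYGO2 start lay under peaks of any name. The PYGO1 peak, 1176 bp long and centred in an AluY element (chromosome 15, 55921600 to 55922775), lay 41137 bp upstream of the PYGO1 TSS, inside intron 15 of the neighbouring gene PRTG. No peak was annotated to a transcript of PYGO1, and none lay within 10 kb of its start.

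The Groucho corepressor genes both had long promoter peaks. The TLE1 peak was 3662 bp (chromosome 9, 84301844 to 84305505), longer than 89.0% of promoter peaks. The TLE3 peak was 4076 bp (chromosome 15, 70387277 to 70391352), longer than 92.6%. Both covered the start with sequence to either side, 1909 bp upstream and 1752 bp downstream at TLE1, and 2261 and 1814 bp at TLE3. The list used 2 starts for TLE3, 1165 bp apart, which is also the spacing of the outer 2 starts in RefSeq, and the promoter peak covered both. Its 2261 and 1814 bp were counted from the inner start, at 70389091. Distances of the other TLE3 peaks were counted from the outer start, at 70390256. A gap of 50 bp separated the promoter peak from a 3476-bp intergenic peak centred 2884 bp upstream in a CpG island. The remaining TLE3 peaks, 1019 and 1300 bp, lay 13757 and 173663 bp upstream, and none lay in the gene body beyond the promoter.

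TLE1 had 10 peaks, of which 9 lay downstream of the TSS. Apart from the promoter peak, the longest was 2093 bp in intron 4, centred in an AluSz6 element 21508 bp downstream, and the other 8 were 626 to 1184 bp long, all below the median of all peaks. The farthest was a 744-bp peak in an AluY element 377511 bp downstream in intergenic sequence. SINE repeats held the centres of 4 TLE1 peaks and of none at TLE3. The stretch between flanking peaks of other names was 2046647 bp at TLE1, with 0.489 peaks per 100 kb, and 531302 bp at TLE3, with 0.753. Both values were below the 1.49 over all chromosomes. The TLE1 value depends on where the flanking peaks lie. The 10 TLE1 peaks spanned 379792 bp, and the rest of the 2046647-bp stretch held no peak, so they stood closer together than 0.489 per 100 kb. At TCF7L2 (4.64 per 100 kb) the peaks spanned 246088 bp of a 388142-bp stretch.

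**Figure D3:**
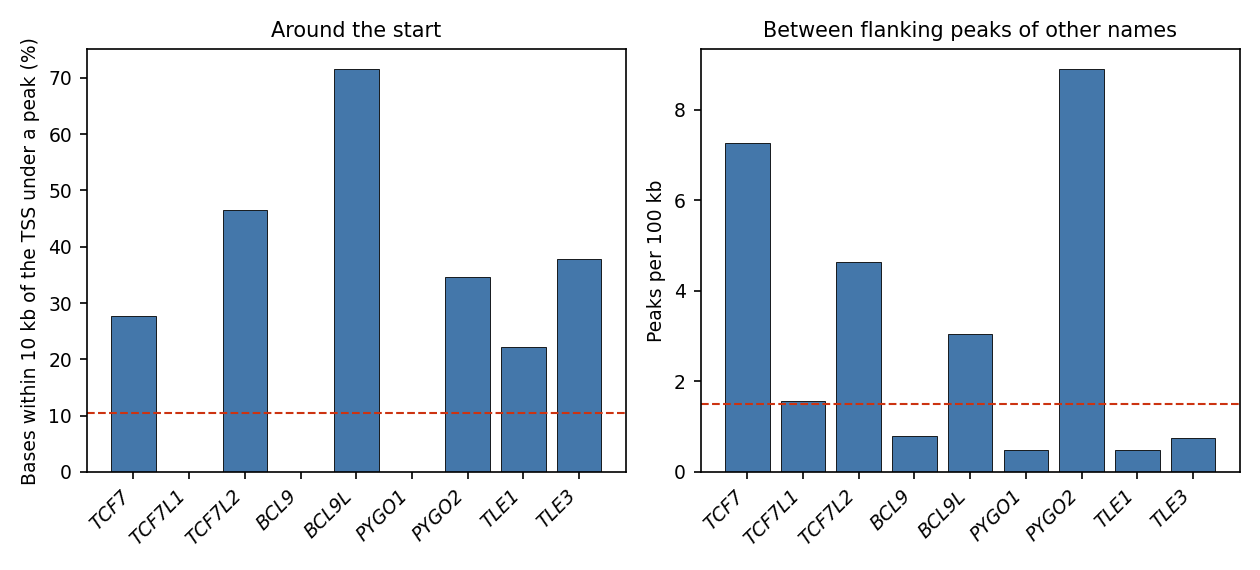
Left, share of the bases within 10 kb of the TSS that lay under a peak of any name (%), by gene, with the dashed line at the median of 10870 named protein-coding genes (10.4%). Right, peaks per 100 kb in the stretch between flanking peaks of other names, with the dashed line at the value over all chromosomes (1.49). BCL9L (71.5%) and TCF7L2 (46.5%) lead on the left, TCF7L1, BCL9 and PYGO1 are at 0, and the PYGO2 bar on the right is 1 peak in 11246 bp.

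Over all 51 peaks, introns held 26 (51.0%, 95% Wilson interval 37.7 to 64.1), intergenic sequence 21 (41.2%, interval 28.8 to 54.8), promoters 3 (5.88%, interval 2.02 to 15.9) and a 5′ UTR 1. The shares over the whole list were 45.6%, 36.1% and 11.2% for the first 3 classes, each inside the interval. None of the 51 lay in an exon, a 3′ UTR, a termination site or a non-coding transcript by its annotation. The median length was 1437 bp, against 1349 bp over all peaks, and 17 peaks (33.3%, interval 22.0 to 47.0) reached the third quartile of 2134 bp that 25.0% of all peaks reach. TCF7L2 weighed heavily in these values, and without it the median of the set was 1176 bp. SINE repeats held the centres of 13 peaks (25.5%, interval 15.5 to 38.9), against 38.7% over the list, and 12 peaks (23.5%, interval 14.0 to 36.8) lay beyond 100 kb from the TSS, against 13.2%. The intervals treat peaks as independent and cover counting error only, and the 12 far peaks came from TCF7L2 (7), TLE1 (4) and TLE3 (1). Neighbouring peaks of a gene stood within 100 bp of each other 4 times in 42 gaps (9.52%), at TCF7L2, BCL9, TLE3 and BCL9L, against 1.28% of all gaps between neighbouring peaks in the list, which include gaps between genes.

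**Figure D4:**
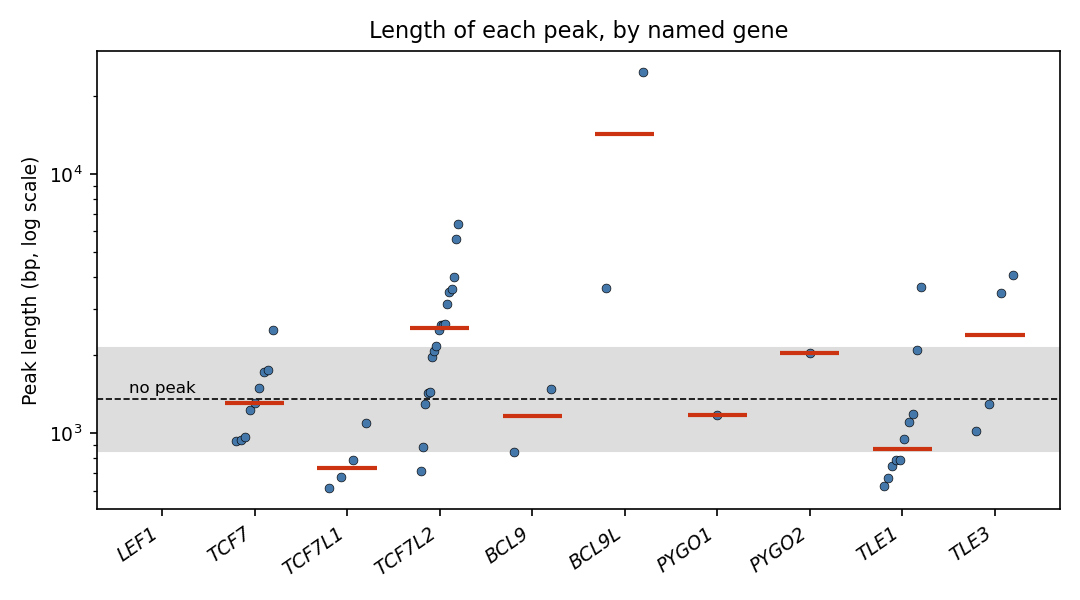
Length of each of the 51 peaks (y axis, bp, log scale) by named gene, with red lines at the median of each gene. The dashed line and grey band are the median and the middle quartiles of all 44771 peaks (1349 bp, and 857 to 2134 bp). The TCF7L2 median of 2549.5 bp lies above the band, the TCF7L1 median of 731 bp below it, and the BCL9L median of 14213.5 bp rests on 2 peaks.

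Other nuclear cofactors and regulators of β-catenin were examined as a list of 33 genes. Of these, 31 were named for a peak, 26 had a peak centre within 10 kb and 18 had a covered start, beside the same backgrounds of 67.5%, 50.9% and 36.5%. The longest linked peaks were at SSBP4 (8506 bp), which encodes a partner of LDB1 in an enhancer-bound complex, RUVBL2 (6761 bp), an ATPase of chromatin remodelling complexes, LDB1 (6056 bp), SMARCA4 (4631 bp), the remodelling ATPase BRG1, HDAC1 (4342 bp), a histone deacetylase, and CTBP2 (4335 bp), a corepressor. CTBP2 had 18 peaks, as many as TCF7L2. No peak was named for CBY1, an antagonist that exports β-catenin from the nucleus, or for MED12, a Mediator subunit. The histone acetyltransferase gene EP300 had 1 peak and it lay beyond 10 kb, whereas its relative CREBBP had 2 within 10 kb, the longest 1914 bp. Within the Groucho family beyond TLE1 and TLE3, TLE2 had 4 linked peaks (longest 3166 bp), TLE6 had 2 (3224 bp) and TLE5, listed under its older name AES, had 2 (2813 bp). TLE4, the neighbour of TLE1 on chromosome 9, had 1 peak and none within 10 kb.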

How the data were processed

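The data were a single deposited table of annotated peaks from 1 APC ChIP library of HCT-116 cells. MACS2 and hg19 are named in the submitters' processing notes, while its version, its threshold, how the input entered and which tool annotated the peaks were not found in the labels or the file header. In every row the deposited score is larger by 2 than the difference of end and start, so the authors' score is a length and says nothing of binding strength. Lengths here are the end minus the start plus 1. Start positions, end positions and signed distances to a TSS were used as deposited, and each peak names 1 gene. How peak length depends on depth and caller settings was not tested.

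Peaks were taken by the exact gene name. A start was covered if the distance from the peak centre was at most the peak's reach to either side. Simulated positions were used to check the arithmetic of this rule only. Their distances were counted from peak centres by design, so they do not bear on how the deposited distances were measured. The background was 20037 protein-coding genes of RefSeq (GRCh38.p14), used for names, strands, transcripts and gene order, and 13485 of 13691 protein-coding names matched. Promoter sequences are RefSeq's, with 15 entries for 9 of the genes. Strands came from the same entries, which lack BCL9L. The BCL9L strand was therefore inferred as the one on which its 2 peaks implied the closest TSS positions. The genes, lists and alternatives were chosen with earlier results of these data known, and 2 alternatives were added after seeing the data. All 10 genes are named, and of the other cofactors the 6 with the longest linked peaks and those with no peak. EP300, CREBBP and the other TLE genes were named after their values were seen. Python 3.11.15, pandas 2.3.3, numpy 2.4.6, scipy 1.17.1 and matplotlib 3.10.9 were used.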

Additional observations from a re-analysis of the deposited data

How the results depend on the processing

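The count of 6 genes with a linked peak, the 6 covered starts and the 3 promoter peaks held when only peaks of at least the median length were used, when SINE-centred peaks were left out, when satellite, simple, low-complexity and rRNA repeats were left out, and when peaks within 500 bp were merged. The 6 peaks that covered a start were 2045 to 24793 bp long, and none was centred in a SINE repeat. They also supplied the 6 links and the 3 promoter peaks, so the length and SINE filters could not change these counts. Of 35 values recomputed under alternatives, 33 stayed within 1.5 times the count, or within the 95% interval of the median length (1176 to 2066 bp). The exceptions were the number of peaks, 27, and their median length, 2609 bp, when only peaks of at least the median length were used, which follows from selecting on length. The 1.5-fold band is wide, as it kept the fall of linked other cofactors from 26 to 18 of 33 genes within 1 kb. It also kept the rise of linked genes of the set from 6 to 9 at any distance. The values counted as unchanged include the repeat setting that removed no peak of the set, and the counts above under the length and SINE filters. Linked genes numbered 5 within 1 kb (without BCL9L), 5 for peaks of at least 2134 bp (without PYGO2, chosen after seeing the data), 8 within 50 kb and 9 at any distance. Adding the 4 peaks annotated to a transcript of the set but named for another gene, also chosen after seeing the data, gave 55 peaks. With 1 library and no read counts, a gene without a peak may have signal below the caller's threshold, and TSS positions depend on the annotation behind the list. No paired analysis was possible because each group has 1 library.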
